A study of Homo sapiens with 6 samples.

Results

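The constitutive proteasome subunits are the proteins of the protease that every cell uses to degrade ubiquitin-tagged proteins. Their genes were taken as the protein-coding genes of GENCODE release 29 whose symbol is PSMA, PSMB, PSMC or PSMD with a number, without the immune-type subunits PSMB8, PSMB9 and PSMB10. This gave 36 of the 58676 genes in the table, 16 of the core (PSMA and PSMB) and 20 of the cap (PSMC and PSMD). The cells are a human line labelled HCC and not named further, and their RNA was sequenced after growth in DMEM with serum. The control group is 3 libraries titled 238 and the knockdown group is 3 libraries titled sponge. A sponge is a transcript with binding sites that take up a microRNA, and the series title names miR-19a, whose mature form a table of gene RPKM does not measure, so the knockdown could not be checked. The vector, the promoter that drives it, the time of treatment and the nature of 238 were not given in the sources used here, nor was it stated that the replicates are separate cultures, so the p-values measure a spread between libraries that may be technical.

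The proteasome consists of a barrel, the core, and a cap at its ends. The alpha rings, made of PSMA subunits, close the barrel and open as a gate, and the beta rings, made of PSMB subunits, hold the cutting sites inside. The cap has a base with a ring of ATPases (PSMC), which unfold the substrate and thread it into the core, and a lid of PSMD subunits, which removes the ubiquitin chain. The subunits are needed together in fixed proportion, and their genes are known to be transcribed together when the proteasome is inhibited.

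Libraries had 1948940 to 19605312 reads assigned to genes, with control replicate 2 the shallowest. In knockdown replicate 2 the order of values did not match that of the gene IDs (Spearman correlation across genes 0.017 to 0.019 with the other columns, against 0.82 to 0.89 among those), so it was left out and the comparison rests on 3 control and 2 knockdown libraries. The cells were checked on 10 hepatocyte markers, none of which was at 0, with summed levels of 1932 to 2237 RPKM across controls and 2129 to 2398 across knockdown libraries. Fibroblast markers summed to 63.3 to 82.6 RPKM in control and 68.0 to 72.0 in knockdown, blood and immune markers to 44.5 to 51.4 and 46.2 to 52.4, and endothelial markers to 0.523 to 0.760 and 0.388 to 0.406, with MS4A1 and KDR at 0 in all 5 libraries. The endothelial sums, mostly PECAM1, were lower in both knockdown libraries. The other 3 sums overlapped between the groups, and the fibroblast sum was mostly LUM. Both knockdown values exceeded all controls for 2 of 10 hepatocyte and 3 of 6 fibroblast markers, against 14.3% of all genes. They did so for 1 of 8 blood and immune and 1 of 4 endothelial markers. Both lay below all controls for 1 fibroblast and 1 endothelial marker, against 13.6% of all genes. Of the separated markers, DCN and CDH5, above, and COL3A1, below, were too low to be tested, on 0 to 2, 0 to 2 and 2 to 21 reads. The shares of all genes cover tested genes only, so these marker counts are not fully like them. The part of the cell type markers in the results was not tested.

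The microRNA and the sites that members hold for it are shown first, because a direct action of a sponge would pass through such sites. The seed, bases 2 to 8, is in capitals in the microRNAs, and its match TTTGCAC is in capitals in the transcripts, each shown with 11 bases on either side. miR-19a-3p and miR-19b-3p (RefSeq, GRCh38.p14) share the seed.
miR-19a-3p: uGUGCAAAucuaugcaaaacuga
miR-19b-3p: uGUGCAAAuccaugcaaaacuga
PSMA4 site: ggcgattacttTTTGCACattgtggctta
PSMC2 site: gaaaatgctgcTTTGCACtgaaatactta
PSMD9 site: caacatatttcTTTGCACtgaggccttgc

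Of the 36 members, 3 had the match in the longest annotated 3' UTR (8.33%), against 2752 of 19436 coding genes (14.2%). The median 3' UTR of the members was shorter, 868.5 bases against 1336.5. The match in PSMA4, an alpha subunit, is followed by A, and those in PSMC2, an ATPase, and PSMD9, an assembly chaperone, are not. The log2 difference between knockdown and control was 0.12 (SE 0.26) for PSMA4, -0.16 (SE 0.15) for PSMC2 and 0.21 (SE 0.29) for PSMD9, and in each the groups overlapped. A match is a description of letters and not a measured site.

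Across the set, no proteasome subunit passed the test between knockdown and control, and the medians of the core and the cap lay on opposite sides of 0. Levels are in RPKM, reads per kilobase of exon scaled to the reads of the library, and a log2 difference is knockdown minus control on the scale log2(RPKM + 0.5), positive where knockdown is higher. The log2 difference was positive in 20 of the 34 tested members and negative in 14, and its median was 0.03. Over all genes it was positive in 7701 of 15408, and its median was 0.00. Of the 14 core genes tested, 13 were above 0, with a median of 0.13, while 13 of the 20 cap genes were below 0, with a median of -0.09. None of the 34 was called by limma at an adjusted p under 0.05, where the background was 0% higher and 0% lower, and the lowest adjusted p among them in limma was 0.71. At an unadjusted p under 0.05 limma had 0 members, against 3.80% of all genes higher and 2.54% lower. Voom on recovered reads called 0 members without sample weights, where the background was 0%, and 0 members with them, where it was 0.0260%. At an unadjusted p under 0.05 it had 1 lower member, PSMD1, without the weights, against 5.74% of all genes lower, and 2, PSMC1 and PSMD1, with them, against 6.05%. It had 0 higher members in either fit, against 4.85% of all genes without the weights and 6.97% with them. As shares of 34 these counts are near or below the background. PSMA8, the alpha subunit of germ cells, and PSMB11, the beta subunit of the thymus, had 0 reads in all 5 libraries and were not tested.

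In 1 of the 34 members, PSMB4, both knockdown values exceeded the 3 control values, against 14.3% of all genes. They lay below all 3 controls for 3, PSMD1, PSMD2 and PSMD12, against 13.6% of all genes. As shares of 34 both counts are below those backgrounds.

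**Figure D1:**
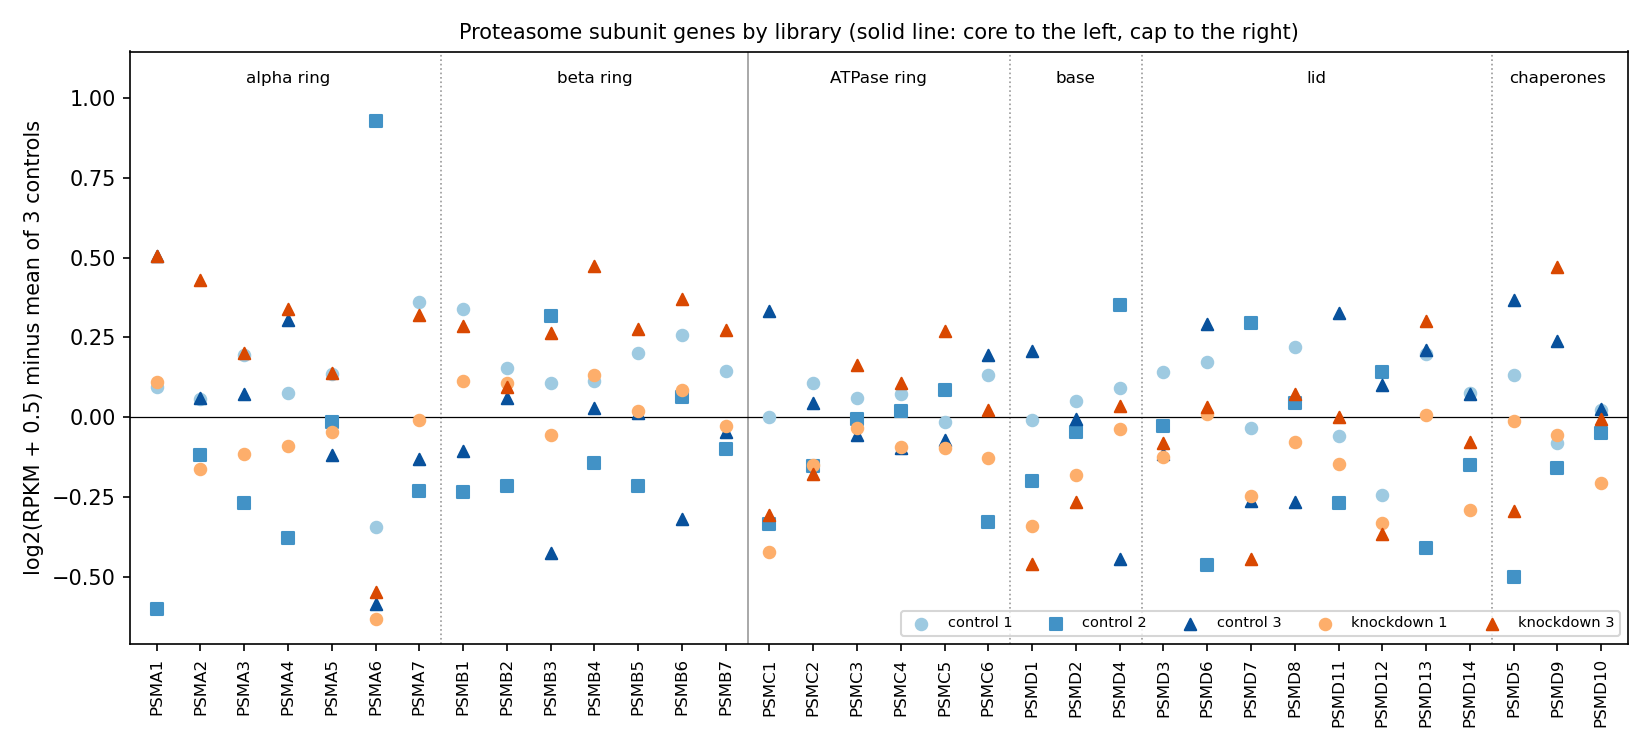
Each column is 1 of the 34 tested genes and each point 1 library, as log2(RPKM + 0.5) minus the mean of the 3 controls (vertical axis). Blue points are controls and orange points are knockdown, and the groups overlap in 30 of 34 columns, with PSMA6 in control replicate 2 as the highest point.

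The beta ring holds the 3 kinds of cutting site. PSMB5 (ENSG00000100804, chromosome 14 from 23016543 to 23035230, GRCh38), which cuts after hydrophobic residues, was at 145, 109 and 127 RPKM in control replicates 1 to 3, and the knockdown libraries, replicates 1 and 3, had 128 and 153 RPKM. PSMB6 (chromosome 17 from 4796144 to 4798503), which cuts after acidic residues, was at 176, 154 and 118 RPKM in control and 157 and 191 RPKM in knockdown. PSMB7 (chromosome 9 from 124353466 to 124415444), which cuts after basic residues, was at 163, 138 and 143 RPKM in control and 145 and 179 RPKM in knockdown. In all 3 the highest library was knockdown replicate 3 and knockdown replicate 1 lay inside the range of the controls.

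The log2 differences of the 3 cutting subunits were 0.15 (SE 0.20) for PSMB5, 0.23 (SE 0.23) for PSMB6 and 0.12 (SE 0.18) for PSMB7. The limma 95% interval for PSMB5 ran from -0.34 to 0.64 and so spans both signs. PSMB4 (chromosome 1 from 151399534 to 151401944), a beta subunit without a cutting site, was at 73.7, 61.6 and 69.6 RPKM in control and 74.6 and 94.8 RPKM in knockdown. Knockdown replicate 1 exceeded control replicate 1 by less than 1 RPKM, and the log2 difference was 0.30 (SE 0.18, limma adjusted p = 0.725). PSMB2 had the smallest difference of the ring, 0.10 (SE 0.17), with 65.2, 50.3 and 61.03 RPKM in control and 63.1 and 62.5 RPKM in knockdown. All 7 tested beta genes were above 0, from 0.10 to 0.30, and 6 of them overlapped between the groups. PSMB1 and PSMB3, which are structural, were at 0.20 (SE 0.22) and 0.10 (SE 0.27).

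The immune-type subunits that can replace PSMB5, PSMB6 and PSMB7 stood far below them. PSMB9 amounted to 0.181%, 0.325% and 0.309% of the RPKM of PSMB6 in control and to 1.88% and 2.29% in knockdown, on 9, 3, 22, 84 and 204 reads. PSMB10 amounted to 2.16%, 2.41% and 2.29% of PSMB7 in control and 3.33% and 3.44% in knockdown, and PSMB8 to at most 0.316% of PSMB5 in any library. PSMB9 and PSMB10 differed by 2.20 (SE 0.26) and 0.62 (SE 0.18) on the log2 scale, both with a limma adjusted p of 0.71 and with both knockdown libraries above all controls. The difference of PSMB9 depended on the scale, at 1.72 with a pseudocount of 1, 2.91 with a pseudocount of 0.1 and 3.27 in voom (adjusted p = 0.149), and voom with sample weights called it at 3.35 (adjusted p = 0.0267). PSMB9 met the 0.5 RPKM needed in 3 libraries for testing through both knockdown libraries and control replicate 2 (0.501 RPKM on 3 reads). It was thus admitted through the group in which it is high, so its p-values add no support.

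In the alpha ring 6 of 7 tested genes were above 0, with a median of 0.12, and all 7 overlapped between the groups. PSMA1 had the highest difference, 0.31 (SE 0.36), with 7.09, 4.20 and 9.58 RPKM in control and 7.17 and 9.59 RPKM in knockdown. Without control replicate 2 the difference of PSMA1 was 0.0077. PSMA6 had the lowest, -0.59 (SE 0.48), with 2.13, 5.84 and 1.72 RPKM in control and 1.65 and 1.78 RPKM in knockdown. The value of 5.84 comes from control replicate 2 and 74 reads, and without that library the difference of PSMA6 was -0.13. The more abundant alpha genes PSMA7, with means of 135 ± 31.1 RPKM (SD, n = 3) for control and 149 ± 24.0 RPKM (SD, n = 2) for knockdown, and PSMA3, at 59.5 ± 9.66 and 61.2 ± 9.48 RPKM, differed by 0.16 (SE 0.24) and 0.04 (SE 0.21). PSMA5, the remaining alpha gene, was at 0.05 (SE 0.16).

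The ATPase genes split evenly, 3 above and 3 below 0, with a median of -0.02. PSMC1, a subunit that helps open the gate of the core, had the lowest difference, -0.36 (SE 0.23), with 10.01, 7.83 and 12.7 RPKM in control and 7.33 and 8.00 RPKM in knockdown. Control replicate 2 lay between both knockdown libraries, so the groups overlapped, and the difference was -0.53 without that library. PSMC5 had the highest, 0.09 (SE 0.17), with 37.8, 40.6 and 36.4 RPKM in control and 35.7 and 46.2 RPKM in knockdown. The difference of PSMC5 was -0.10 without knockdown replicate 3. PSMC6 was at -0.05 (SE 0.21). The most abundant ATPases were PSMC3, at 147 ± 6.03 RPKM (SD, n = 3) and 154 ± 14.9 RPKM (SD, n = 2), and PSMC4, at 119 ± 7.02 and 119 ± 11.8 RPKM.

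The lowest cap genes with separated groups were scaffold genes of the base and 1 gene of the lid. PSMD1 (ENSG00000173692, chromosome 2 from 231056864 to 231172827), a scaffold of the base, was at 36.5, 32.0 and 42.5 RPKM in control and 28.95 and 26.6 RPKM in knockdown, a log2 difference of -0.40 (SE 0.17, limma adjusted p = 0.71, unadjusted p = 0.0666). PSMD2 (chromosome 3 from 184298709 to 184309054), the other scaffold and a docking place for ubiquitin carriers, was at 103, 96.1 and 98.7 RPKM in control and 87.5 and 82.4 RPKM in knockdown, a log2 difference of -0.22 (SE 0.14). PSMD12 (chromosome 17 from 67337916 to 67366627), a lid subunit, was at 19.9, 26.2 and 25.5 RPKM in control and 18.7 and 18.3 RPKM in knockdown, a log2 difference of -0.35 (SE 0.17). PSMD1 and PSMD12 share the lowest adjusted p of the set, 0.71 in limma, which is also the lowest over all genes. The limma 95% interval for PSMD1 ran from -0.84 to 0.04.

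PSMD4, a receptor for ubiquitin chains, had a log2 difference of 0.00 (SE 0.26) and spread widely among the controls, at 63.1, 75.6 and 43.4 RPKM, with 57.7 and 60.7 RPKM in knockdown. PSMD14, the enzyme of the lid that cuts off the ubiquitin chain, was at 28.7, 24.5 and 28.7 RPKM in control and 22.2 and 25.8 RPKM in knockdown, and its difference of -0.18 (SE 0.16) was 0.02 with trends against length and GC removed. PSMD7, the inactive partner of PSMD14, had a difference of -0.35 (SE 0.21), with 63.8, 80.3 and 54.4 RPKM in control and 55.0 and 47.9 RPKM in knockdown. Of the 8 lid genes, 6 were below 0, with a median of -0.09. PSMD13 was the highest of the lid at 0.15 (SE 0.25), and PSMD3, PSMD6, PSMD8 and PSMD11 lay between -0.10 and 0.02. The 3 chaperones with PSMD names, which help assemble the base and leave the finished particle, were at -0.15 (SE 0.29) for PSMD5, 0.21 (SE 0.29) for PSMD9, the highest PSMD gene, and -0.11 (SE 0.14) for PSMD10. PSMD10 encodes gankyrin, known for high levels in liver cancer, and its level was 29.6 ± 0.885 RPKM (SD, n = 3) for control and 27.5 ± 2.75 RPKM (SD, n = 2) for knockdown.

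Core and cap were compared by the difference of their medians, as a description without a test. The median difference between knockdown and control was higher in the core by 0.22 on the log2 scale. By library, with each gene set against its mean in the 3 controls, the core median minus the cap median was 0.07, -0.08 and -0.07 in control replicates 1 to 3 and 0.11 and 0.28 in knockdown replicates 1 and 3. Both knockdown libraries lay above the controls, but knockdown replicate 1 exceeded control replicate 1 by less than the SD of the 3 controls, 0.09. After removal of the trends with exon length and GC in each library, these values were 0.13, -0.16 and -0.03 in control and 0.13 and 0.30 in knockdown. Without knockdown replicate 3 the difference of medians was 0.11, and the core median itself was -0.02, with 6 of 14 core genes and 8 of the 34 members above 0.

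The order of the core medians by library was compared with that of the cytosolic ribosomal protein genes. Core medians were 0.14, -0.18 and -0.02 in control and -0.02 and 0.28 in knockdown. Ribosomal protein medians over 80 genes were 0.29, -0.19 and -0.13 in control and 0.23 and 0.53 in knockdown. Cap medians were 0.07, -0.10 and 0.06 in control and -0.13 and -0.00 in knockdown. In core and ribosomal sets alike, knockdown replicate 3 was highest and control replicate 2 lowest, and control replicate 1 lay above knockdown replicate 1. The orders differed in that knockdown replicate 1 lay above control replicate 3 in the ribosomal set and not in the core. Between the groups, 75 of 80 ribosomal genes were above 0, with a median log2 difference of 0.38, against 13 of 14 and 0.13 in the core. The share of reads from mitochondrial genes was 4.94% to 10.4% in control and 7.83% to 8.30% in knockdown. The part of depth or RNA composition in these orders was not tested. In bulk RNA, fewer cells of a type and less RNA per cell cannot be told apart.

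**Figure D2:**
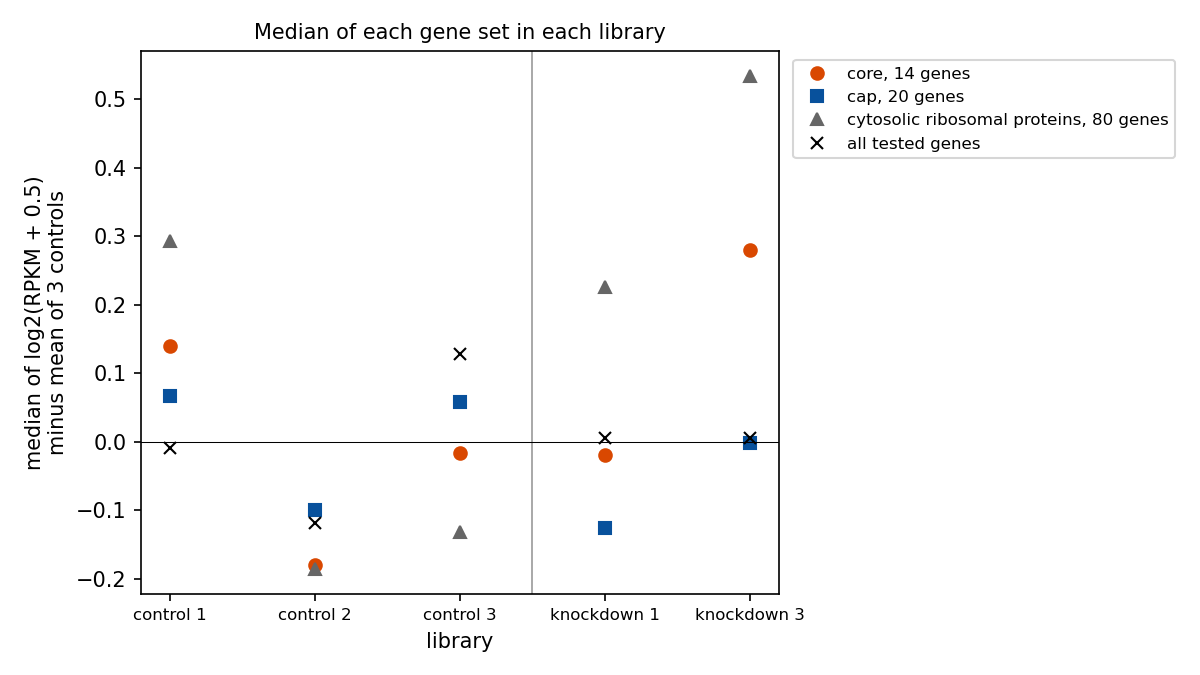
For each library (horizontal axis), points give the median over a gene set of log2(RPKM + 0.5) minus the mean of the 3 controls. Core genes range from -0.18 in control replicate 2 to 0.28 in knockdown replicate 3, and ribosomal protein genes are also lowest (-0.19) and highest (0.53) in those libraries.

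Exon length differs between the sets, with a median of 2687.5 bases in the tested core genes and 4865.5 in the cap genes. Over the 34 tested members the Spearman correlation between exon length and log2 difference was -0.41, against -0.23 over all 15408 genes, given as a description because genes share the libraries. It was -0.40 over the 14 core genes and -0.08 over the 20 cap genes. Among genes under 3 kilobases of exon, the 4 cap genes PSMC3, PSMC4, PSMD7 and PSMD10 lay between -0.35 and 0.07, and the 7 core genes, which are PSMA7 and the beta genes other than PSMB2, lay between 0.10 and 0.30. The cut at 3 kilobases was not set in advance. Just above it, the core gene PSMA3 (3119 bases) was at 0.04, inside that cap range, and the cap gene PSMD8 (3105 bases) at -0.0022. With length and GC trends removed the difference of medians between core and cap was 0.23.

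**Figure D3:**
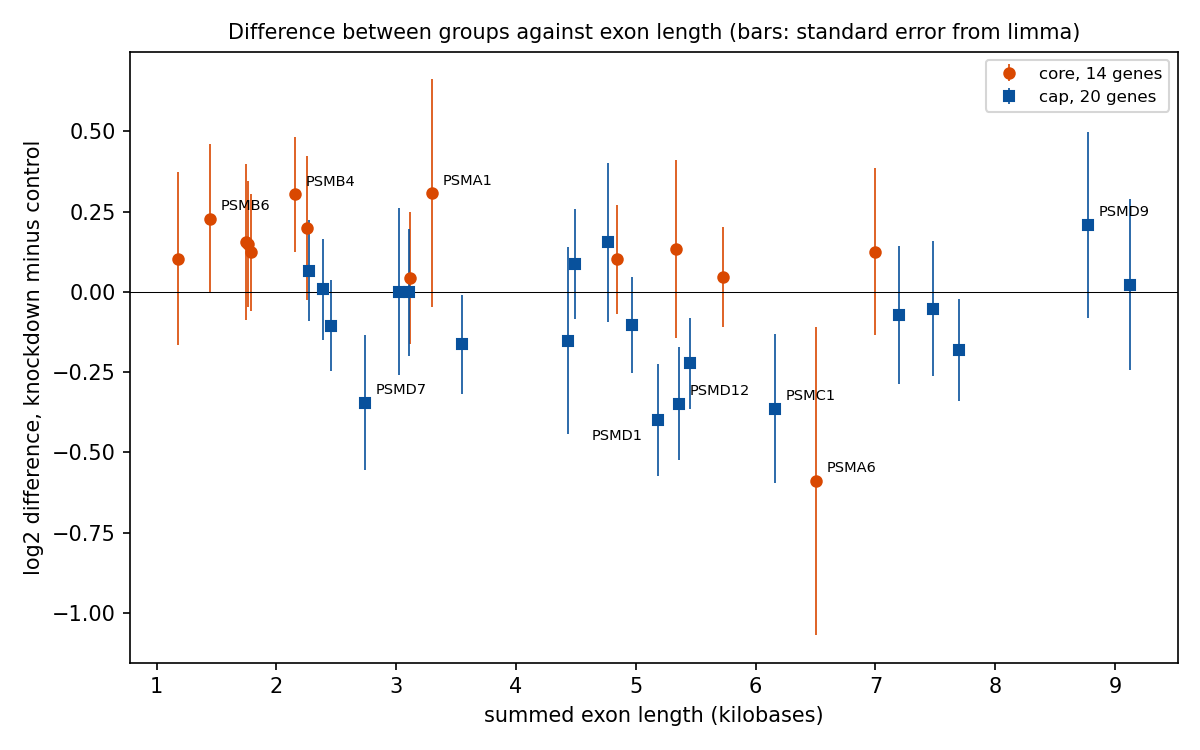
Log2 difference, knockdown minus control, with its standard error (vertical axis) against summed exon length in kilobases for 14 core genes (orange circles) and 20 cap genes (blue squares). Core genes lie above 0 except PSMA6 at -0.59, and the cap genes of lowest value, PSMD1, PSMC1, PSMD12 and PSMD7, lie between -0.40 and -0.35.

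Levels differed widely among the members. In control those tested ran from 0.587 ± 0.163 RPKM (SD, n = 3) for PSMD9 and 0.669 ± 0.0801 RPKM for PSMA2 to 149.5 ± 29.4 RPKM for PSMB6. The median RPKM of the core divided by that of the cap was 1.90, 1.85 and 1.66 in control replicates 1 to 3 and 2.13 and 2.25 in knockdown replicates 1 and 3, a ratio that, like the difference of medians, was higher in both knockdown libraries. All members together took 0.663%, 0.579% and 0.605% of assigned reads in control and 0.577% and 0.644% in knockdown, which overlapped.

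The members at the lowest levels shared exons with other annotated genes. PSMA2 shared 97.1% of its coding bases with exons of other genes, PSMA1 88.6%, PSMA6 70.4%, PSMD9 58.7% and PSMC1 47.7%. In PSMA1, PSMA6 and PSMD9 the gene of largest overlap is a second coding model on the same strand (AC018523.2, AL121594.1 and AC069503.2), and these models were at 0.0892 RPKM or less in all 5 libraries. In PSMC1 it is NRDE2 on the opposite strand, at 0.0584 to 0.465 RPKM. Members that share more than 50% of coding bases had control means of 0.587 to 6.96 RPKM, while of the 30 other tested members PSMD6, at 6.25 ± 1.74 RPKM, was the single one below 10 RPKM. The counting of reads over shared exons is not stated in the labels, so the levels of these members are uncertain, and the part of the overlap in their low levels was not tested. The difference of medians between core and cap was 0.23 without the 4 members that share more than 50%.

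**Figure D4:**
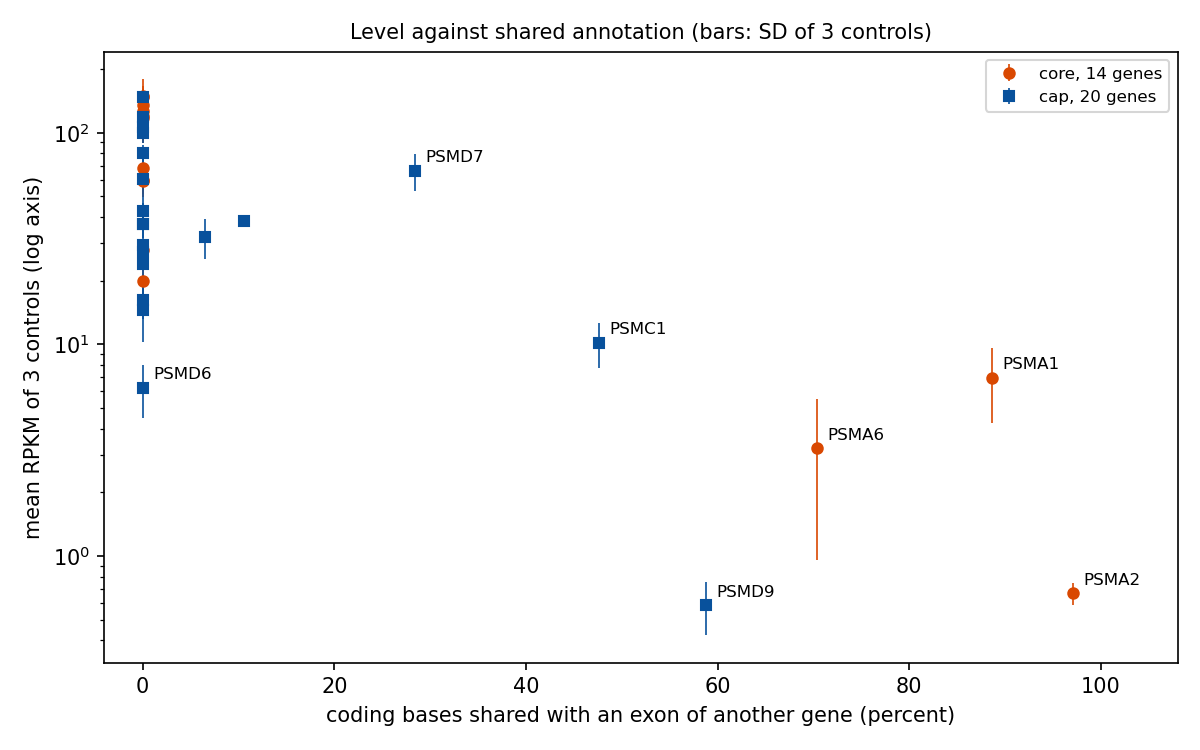
Mean RPKM of the 3 controls with its SD (vertical log axis) against the percent of coding bases shared with exons of another gene for the 34 tested members. PSMA2, PSMA1, PSMA6, PSMD9 and PSMC1, at 47.7% or more, lie at or below 10.2 RPKM, and members with no shared bases reach 149.5 RPKM.

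Genes that assemble, load and control the proteasome were read from the same fit. Of 51 tested genes in 8 lists, 0 passed limma at an adjusted p under 0.05, and 26 were above 0. At an unadjusted p under 0.05 limma had 3 higher genes, PSMB9, PSMB10 and PSME1, and 1 lower gene, UCHL5, against 3.80% of all genes higher and 2.54% lower. Voom called 0 of them without sample weights and 1, PSMB9, with them. At an unadjusted p under 0.05 voom had 6 higher and 2 lower genes without the weights, against 4.85% and 5.74% of all genes. With the weights it had 5 higher and 1 lower, against 6.97% and 6.05%. PSMB9 is in each of these counts of higher genes. It was admitted to testing through the group in which it is high, so its place in them adds no support. The activator genes PSME1 and PSME2, whose products form the interferon-linked cap, differed by 0.48 (SE 0.19) and 0.74 (SE 0.36). PSME1 was at 65.9, 52.4 and 63.7 RPKM in control and 76.1 and 94.1 RPKM in knockdown, and PSME2 at 32.4, 16.5 and 32.8 RPKM in control and 36.998 and 52.0 RPKM in knockdown. Both knockdown libraries lay above all controls in each. PSME4, which encodes another activator, lay on the other side at -0.37 (SE 0.22), with both knockdown libraries below all controls. The activator gene PSME3 was at -0.28 (SE 0.22) with the groups overlapping, and PSMF1, an inhibitor, was at 0.02 (SE 0.13).

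Among the assembly factors of the core 4 of 5 were above 0, with POMP at 0.31 (SE 0.26) and PSMG4 at 0.28 (SE 0.21). Leaving out 1 library moved POMP between 0.072, without knockdown replicate 3, and 0.56, without knockdown replicate 1. Among proteasome-bound factors 7 of 9 were below 0. UCHL5, a deubiquitinase docked on the cap, was at 5.31, 6.09 and 6.68 RPKM in control and 4.13 and 4.02 RPKM in knockdown, a log2 difference of -0.51 (SE 0.17), while SEM1, a small lid subunit without a PSMD name, differed by 0.52 (SE 0.26). Shuttle factors, which carry ubiquitinated proteins to the cap, were below 0 for 5 of 6, with DDI2 at -0.46 (SE 0.21) and UBQLN1 at -0.29 (SE 0.24). RPS27A, which encodes ubiquitin joined to a ribosomal protein, differed by 0.50 (SE 0.27). VCP, the ATPase that extracts ubiquitinated proteins, and its cofactor FAF2 differed by -0.22 (SE 0.14) and -0.27 (SE 0.18).

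NFE2L1, the transcription factor known to raise proteasome genes when the proteasome is inhibited, was at 37.3, 42.2 and 39.01 RPKM in control and 46.9 and 36.2 RPKM in knockdown, with the groups overlapping and a difference of 0.06 (SE 0.17). Its cofactors MAFF and MAFK were higher in both knockdown libraries than in all controls, at 0.34 (SE 0.19) and 0.31 (SE 0.15), while in MAFG, the other small MAF of the list, the groups overlapped at 0.05 (SE 0.16). Of the 13 genes listed for control of subunit transcription, 3 had both knockdown values above all controls, against 14.3% of all genes. In 1 of them, DDI2, both lay below all controls, against 13.6% of all genes. FOXO4 and NFYA had the largest differences of the control list, 0.49 (SE 0.27) and -0.47 (SE 0.26). Leaving out 1 library moved FOXO4 between 0.29, without control replicate 3, and 0.68, without control replicate 2, and NFYA between -0.79, without knockdown replicate 1, and -0.16, without knockdown replicate 3.

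The promoters of PSMB4, PSMD1, PSMD2 and PSMD12 are shown because these are the 4 members with separated groups. Each runs from 250 bases before to 50 bases after the start in RefSeq (GRCh38.p14), 5′ to 3′ on the strand of the gene. Capitals mark matches on either strand to CCAAT (bound by NF-Y), GGGCGG (bound by Sp1), TGACNNNGC (bound by NFE2L1 and NFE2L2 with MAF proteins) and GCGC followed by N and TGCGC (bound by NRF1, the nuclear respiratory factor). They lie at chr1:151399323-151399622 (plus strand), chr2:231056617-231056916 (plus strand), chr3:184298991-184299290 (plus strand) and chr17:67366528-67366827 (minus strand).
PSMB4: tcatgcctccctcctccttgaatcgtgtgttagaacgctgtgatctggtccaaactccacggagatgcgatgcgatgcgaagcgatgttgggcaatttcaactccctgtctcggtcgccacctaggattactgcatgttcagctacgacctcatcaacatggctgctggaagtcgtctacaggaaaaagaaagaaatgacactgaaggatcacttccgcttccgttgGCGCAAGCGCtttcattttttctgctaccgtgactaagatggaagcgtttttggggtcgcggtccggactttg
PSMD1: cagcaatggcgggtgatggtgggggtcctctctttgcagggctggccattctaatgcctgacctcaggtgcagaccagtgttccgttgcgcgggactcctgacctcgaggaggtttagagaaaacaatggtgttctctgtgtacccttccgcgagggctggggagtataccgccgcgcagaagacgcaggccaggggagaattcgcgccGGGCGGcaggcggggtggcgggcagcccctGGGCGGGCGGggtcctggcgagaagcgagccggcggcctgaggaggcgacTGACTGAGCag
PSMD2: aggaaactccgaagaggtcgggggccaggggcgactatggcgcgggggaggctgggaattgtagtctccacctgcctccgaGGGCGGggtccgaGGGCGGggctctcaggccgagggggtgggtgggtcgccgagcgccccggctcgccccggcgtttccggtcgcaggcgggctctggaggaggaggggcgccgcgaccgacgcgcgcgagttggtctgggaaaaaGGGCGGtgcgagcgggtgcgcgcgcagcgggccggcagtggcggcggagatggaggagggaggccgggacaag
PSMD12: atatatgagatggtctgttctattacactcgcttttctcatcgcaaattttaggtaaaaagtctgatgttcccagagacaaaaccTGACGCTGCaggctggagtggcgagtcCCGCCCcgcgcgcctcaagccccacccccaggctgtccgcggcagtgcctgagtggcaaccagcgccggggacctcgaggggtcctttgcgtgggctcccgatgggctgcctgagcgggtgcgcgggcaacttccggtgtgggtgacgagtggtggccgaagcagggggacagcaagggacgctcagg

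The window of PSMB4 holds 1 match to the NRF1 motif, and that of PSMD1 3 GGGCGG matches, 2 of which overlap each other, and 1 TGACNNNGC match. The window of PSMD2 holds 3 GGGCGG matches and no TGACNNNGC match, and that of PSMD12 1 GGGCGG and 1 TGACNNNGC match. Promoters were found for 31 of the 36 members, 12 of the core and 19 of the cap, with no entry for PSMA7, PSMB1, PSMB6, PSMB7 and PSMD4. TGACNNNGC was in 7 of 31 member promoters (22.6%), 1 of 12 in the core and 6 of 19 in the cap, against 14.3% of 14896 coding promoters of the same length. CCAAT was in 51.6% of member promoters against 36.4% of all, GGGCGG in 64.5% against 59.5%, and the NRF1 motif in 16.1% against 8.62%. By part, CCAAT was in 7 of 12 core and 9 of 19 cap promoters. GGGCGG was in 7 of 12 and 13 of 19, and the NRF1 motif in 3 of 12 and 2 of 19. These are counts of letters, and they do not show binding.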

How the data were processed

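RNA of 6 libraries was measured, and the authors deposited 1 table of RPKM per gene and library, as its name states. The tool and build named in the submitters' processing notes are HISAT2 and GRCh38. Counter, annotation, strand use and filters were not given in the sources used here. Symbols, coordinates and exon lengths came from GENCODE release 29. In 5 libraries RPKM times exon length gave whole reads for 100% of values above 0 (tolerance 0.002 of a read), and in knockdown replicate 2 for 0.562%, and that library was left out. Libraries had 9181567, 1948940 and 19605312 reads in control and 9296308 and 15198231 in knockdown, so precision is lowest in control replicate 2.

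limma 3.58.1 in R 4.3.3 (lmFit, eBayes with trend) was fitted to log2(RPKM + 0.5) with two-sided tests, keeping the genes that reached 0.5 RPKM in at least 3 of the 5 libraries, with Benjamini-Hochberg adjustment over all of them. A fold on this scale understates changes of low genes. By rule, full statistics were given for PSMB5, PSMB6, PSMB7, PSMD2, PSMD4 and PSMD14, the highest and lowest of each family, separated members and the 2 of largest size in each related list, of which 1 gene is not reported here. PSMA2, PSMA3, PSMA4, PSMA5, PSMA7, PSMB1, PSMB3, PSMC2, PSMC3, PSMC4, PSMC6, PSMD3, PSMD5, PSMD6, PSMD7, PSMD8, PSMD10, PSMD11, PSMD13, PSME3, PSME4, PSMF1, NFE2L1, MAFF, MAFK and MAFG were named after their values were seen. Members and lists were chosen with earlier results of these data known. Promoter and microRNA sequences came from RefSeq (GRCh38.p14). The code was tested on simulated data. Alternatives were pseudocounts, filters, scalings, no trend, the replicate block, voom on recovered reads, removal of length and GC trends, and leaving out each library.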

Additional observations from a re-analysis of the deposited data

How the results depend on the processing

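The core median stayed above the cap median under all 19 alternatives, at 0.11 to 0.28 on the log2 scale. No member was called under any that kept both knockdown libraries. The alternatives are not independent. Without the filter on low values or without the trend, the medians were by construction those of the main fit. The replicate block gave the same medians as leaving out control replicate 2. Leaving out 1 library gave a difference of 0.11 to 0.28, a core median of -0.02 to 0.28, a cap median of -0.20 to -0.0016 and 8 to 23 members above 0. The lowest difference of medians (0.11), core median and member count (8) came without knockdown replicate 3, and the cap median of -0.20 without control replicate 2. The numbers of genes called over the whole table were 0 in limma, 4 in voom with sample weights (3 higher, 1 lower) and 40 with the replicate block (33 higher, 7 lower).

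The replicate numbers could pair only replicates 1 and 3, whose deviations from the group means correlated at -0.17 and 0.02. The deviations of knockdown replicates 1 and 3 from their mean are opposite by construction. These correlations therefore cannot decide whether the shared numbers mark pairs. With the replicate block, at 1 residual degree of freedom, the cap median was -0.20 and the core median 0.04, and PSMB9, at 2.28, was called (limma adjusted p = 0.0116). That call adds no support either, since PSMB9 was admitted to testing through the group in which it is high. PSMB9 ranged from 1.72 to 3.35 over the 13 alternatives in which it was tested. It did not pass the filter on low values in the others. Those had the stricter filter or left out control replicate 2 or a knockdown library. With all 5 libraries kept, reversed values were near 0. PSMD4 was at -0.00014 with a pseudocount of 1, -0.065 in voom with sample weights and -0.074 with length and GC trends removed. PSMD14 was at 0.016 with those trends removed, and PSMB2 at -0.0070 with the replicate block. Reversals on leaving out 1 library reached further from 0, to -0.22 for PSMD4. Without 1 library PSMD4 ranged from -0.22 to 0.18, PSMB2 from -0.0070 to 0.18, PSMB7 from -0.029 to 0.27, PSMC5 from -0.10 to 0.27 and PSMD9 from -0.055 to 0.47. Depth limits the members under 1 RPKM, PSMA2 on 6 to 87 reads and PSMD9 on 8 to 133. Omitting members that share over 50% of coding bases and omitting the chaperones were chosen after the data were seen.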
